A study of Mus musculus with 4 samples.

Results

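The keratin genes, which encode the intermediate filament proteins of epithelial cells, were followed through the open chromatin of mouse hair follicle stem cells with and without the transcription factors NFIB and NFIX. Members were the protein-coding genes whose symbol is Krt followed by digits alone, and each open region went to the protein-coding gene closest to it, up to 100 kb away. By this rule 49 of 21887 protein-coding genes were keratin genes, 25 in the cluster on chromosome 11 and 24 in the cluster on chromosome 15, and they received 130 of 79122 open regions. Krt6a, Krt6b, Krt33a and Krt33b carry a letter and are given separately.

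Chromatin was assayed by ATAC-seq, which reads accessible DNA through the insertions of a transposase. Cells were sorted from the back skin of males at postnatal day 70, when follicles rest in their second telogen. The wild-type (WT) group held 2 mice with floxed Nfib, Nfix and R26-YFP alleles and no Cre. The double knockout (dKO) group held 2 mice with the same floxed alleles and Sox9-CreER, a Cre recombinase driven by the Sox9 gene, so deletion can be induced in cells that express Sox9 and is inherited by their descendants. Cells of all 4 mice were sorted as DAPI-negative, Sca-1-negative, integrin alpha 6-positive and CD34-positive, and dKO cells also as YFP-positive, so the gates differed by this reporter. The labels tie a single peak list to both mice of a genotype. No value below therefore has a spread between mice or a replicate check. Intervals are 95% intervals of counting error that treat regions as independent. They are Wilson intervals, except that of the net share, which is a normal approximation.

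The WT list held 68197 peaks and the dKO list 63548, and the WT list had the higher median pileup (73 against 38). Its lowest local background was 1.94 times that of the dKO list, so lower depth of the dKO list and loss of a region in dKO cells cannot be told apart. A region is called shared when peaks of both lists overlap in it by at least 1 bp, and WT-only or dKO-only when a single list has a peak. Pileup is the authors' deposited stack of reads or fragments at the peak summit, fold is their ratio of that pileup to the local background, and both are given within their own list. At a gene end (up to 1 kb from where the gene model begins or stops), 7 of 8 genes known in hair follicle stem cells (Cd34, Lgr5, Lhx2, Sox9, Tbx1, Tcf7l2 and Itga6, but not Nfatc1) had a peak in each list. This held for 0 of 3 immune, 1 of 3 endothelial, 1 of 3 melanocyte, 2 of 3 fibroblast, 1 of 3 interfollicular epidermal and 2 of 2 sebaceous marker genes in each list, and the part of such cells in the values below was not tested.

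Keratins pair up as a type I (acidic) and a type II (basic) chain, and the pair that a cell makes marks its place in the skin. Krt5 and Krt14 are the pair of basal epidermis and outer root sheath, Krt1 and Krt10 that of the suprabasal epidermis, and Krt15 marks the bulge in which these stem cells rest. Inner root sheath keratins and hair keratins are made by the differentiating descendants of the stem cells while a hair grows, and simple epithelial keratins such as Krt8 and Krt18 belong to single-layered epithelia.

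Promoters were examined first, in windows of 300 bp (250 before and 50 after a RefSeq start site) on GRCm38.p6, the assembly that mm10 names. The table listed 36 windows for 35 of the 49 keratin genes. Neither bulge keratin, Krt15 or Krt19, had a listed window. Krt1, Krt15, Krt16, Krt17, Krt80, Krt86, Krt88 and Krt222 have no listed window but had a shared region at a gene end. Krt19 and Krt81, also without a window, had a WT-only region there, and Krt4, Krt35, Krt83 and Krt87 had none. A gene end can be either end of the gene model, and no start is listed for these genes. Their gene-end regions are therefore not promoter calls. Most listed keratin promoters lay outside peaks: 27 of 36 windows (75.0%) overlapped no peak in either list, against 41.8% of 21263 windows of protein-coding genes. Both lists had a peak over the windows of Krt5, Krt14, Krt25 and Krt75, 11.1% of keratin windows against 55.5% of all. The WT list alone had one over those of Krt2, Krt24, Krt28 and Krt42, 4 of 36 beside a background of 1.60%, and the dKO list alone over that of Krt23, 1 of 36 beside 1.15%. All 8 hair keratin windows were without a peak.

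**Figure D1:**
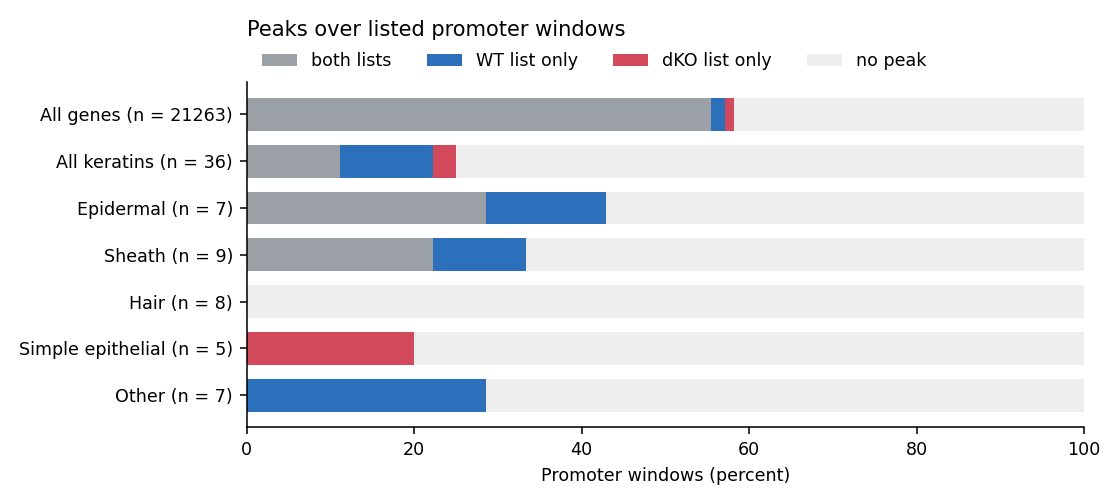
Share of RefSeq promoter windows (percent, horizontal axis) that overlapped a peak in both lists, in the WT list alone, in the dKO list alone or in no list, for all protein-coding genes and by keratin group, with n the number of windows. The bar of the hair keratins holds no peak, and the 2 epidermal windows and 2 sheath windows open in both lists are those of Krt5, Krt14, Krt25 and Krt75.

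The upstream sequences of the windows that carried these calls are shown because they are the keratin promoters in which an open state was seen in both lists, in WT alone or in dKO alone. They run from 250 bases before the start site up to it, 5' to 3' on the minus strand, on which all 6 of these genes lie, from RefSeq GRCm38.p6. Capitals mark the letters TGGCA on either strand (TGCCA when read on the other), the part of an NFI site that a single subunit reads. The windows are chr15:101712906-101713155 for Krt5, chr15:101573905-101574154 for Krt75 and chr11:99322952-99323201 for Krt25 (both lists), chr11:99285263-99285512 for Krt24 and chr11:100269952-100270201 for Krt42 (WT list alone), and chr11:99493121-99493370 for Krt23 (dKO list alone).
Krt5: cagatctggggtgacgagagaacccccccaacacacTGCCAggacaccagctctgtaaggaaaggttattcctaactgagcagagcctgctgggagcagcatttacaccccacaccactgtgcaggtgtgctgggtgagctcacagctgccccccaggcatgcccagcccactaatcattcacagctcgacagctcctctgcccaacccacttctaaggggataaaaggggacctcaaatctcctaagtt
Krt75: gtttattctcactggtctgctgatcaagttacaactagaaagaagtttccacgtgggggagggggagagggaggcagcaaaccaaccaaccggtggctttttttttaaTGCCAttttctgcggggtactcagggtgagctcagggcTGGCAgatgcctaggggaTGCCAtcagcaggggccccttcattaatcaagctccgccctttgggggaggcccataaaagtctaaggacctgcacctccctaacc
Krt25: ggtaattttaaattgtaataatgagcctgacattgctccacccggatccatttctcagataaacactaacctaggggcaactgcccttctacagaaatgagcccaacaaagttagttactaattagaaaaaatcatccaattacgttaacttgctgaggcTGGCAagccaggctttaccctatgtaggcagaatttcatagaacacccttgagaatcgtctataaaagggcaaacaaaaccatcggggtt
Krt24: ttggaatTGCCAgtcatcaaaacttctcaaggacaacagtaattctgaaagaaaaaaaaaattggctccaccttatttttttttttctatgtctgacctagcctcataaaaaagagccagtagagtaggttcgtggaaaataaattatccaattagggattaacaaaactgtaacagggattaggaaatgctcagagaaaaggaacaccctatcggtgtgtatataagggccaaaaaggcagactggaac
Krt42: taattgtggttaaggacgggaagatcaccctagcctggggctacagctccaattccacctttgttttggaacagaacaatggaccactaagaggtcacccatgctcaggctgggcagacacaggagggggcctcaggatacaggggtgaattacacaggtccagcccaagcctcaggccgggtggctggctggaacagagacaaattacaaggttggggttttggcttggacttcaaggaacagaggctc
Krt23: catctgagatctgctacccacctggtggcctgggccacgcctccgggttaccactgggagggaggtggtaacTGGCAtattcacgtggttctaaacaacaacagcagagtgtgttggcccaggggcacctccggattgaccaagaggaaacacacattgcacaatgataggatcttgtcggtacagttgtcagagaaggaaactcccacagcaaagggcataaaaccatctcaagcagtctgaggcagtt
WT peaks covered all 250 bases at Krt5, Krt75, Krt25, Krt24 and Krt42. The dKO peaks covered all 250 at Krt5 and Krt25, 214 at Krt75 and 194 at Krt23. The Krt28 peak reached only the 50 bases after the start and none of the 250 before it, and the listed starts of Krt14 and Krt2 lie 1.48 and 0.787 kb inside their gene models, so these sequences are not shown.

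The letters TGGCA occurred in 29 of 36 keratin windows (80.6%), in 46.1% of all windows of protein-coding genes and in 52.3% of those that lay in no peak. Keratin windows in a peak (8 of 9) and in no peak (21 of 27) both held them often, and the Krt42 window, open in WT alone, did not hold them. The full NFI palindrome was in 0 keratin windows and in 0.0329% of all. TATAAA, the letters of the TATA box, stood in 18 of 36 keratin windows (50.0%) against 12.6% of all and 21.5% of those in no peak. TGANTCA, read by AP-1 factors, stood in 2 windows (5.56% against 6.99% of all and 9.92% of those in no peak). GCCNNNGGC, read by AP-2 factors, stood in 7 (19.4% against 19.9% and 10.8%). CTTTGA, read by LEF and SOX factors, stood in 8 (22.2% against 14.4% and 19.7%). Both strands were searched and these motifs may overlap each other. The median GC content was 48.8% in keratin windows, 56.3% in all windows and 48.0% in those in no peak.

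Over all keratin genes, regions found in WT alone outnumbered those found in dKO alone. Of the 130 regions 36 were WT-only (27.7%, interval 20.7 to 35.9), 9 were dKO-only (6.92%, 3.68 to 12.6) and 85 were shared (65.4%, 56.9 to 73.0). The background over 70900 regions assigned to a protein-coding gene was 21.2% WT-only, 12.9% dKO-only and 66.0% shared. The interval of the keratin WT-only share includes this background and that of the dKO-only share lies just below it. Both readings depended on the processing, as given below. The net share (the percent WT-only less the percent dKO-only) was 20.8% (11.3 to 30.2) against 8.35% over all genes. By gene, 18 keratin genes had more WT-only regions, 2 (Krt75 and Krt8) had more dKO-only regions and 29 had equal numbers, among them 10 with no region at all. This count by gene was made for keratins alone, so it has no background. Over all genes, too, WT-only regions outnumbered dKO-only ones (15030 against 9111). Krt8 had equal numbers at a stricter q threshold (−log10 q of at least 5), and Krt75 and Krt8 both had equal numbers when single-genotype peaks came from the stronger 50%. When regions were matched by summits within 200 bp the counts became 48 WT-only (33.1%, 25.97 to 41.1) and 23 dKO-only (15.9%, 10.8 to 22.7), against 25.8% and 19.2% over all genes. The WT-only interval then lay just above the WT-only share over all genes, and the dKO-only interval included the dKO-only share. When single-genotype peaks were taken only from the stronger 50% of each list, with all shared regions kept, the counts became 5 WT-only and 1 dKO-only. The net share was then 4.40% against 2.04%.

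**Figure D2:**
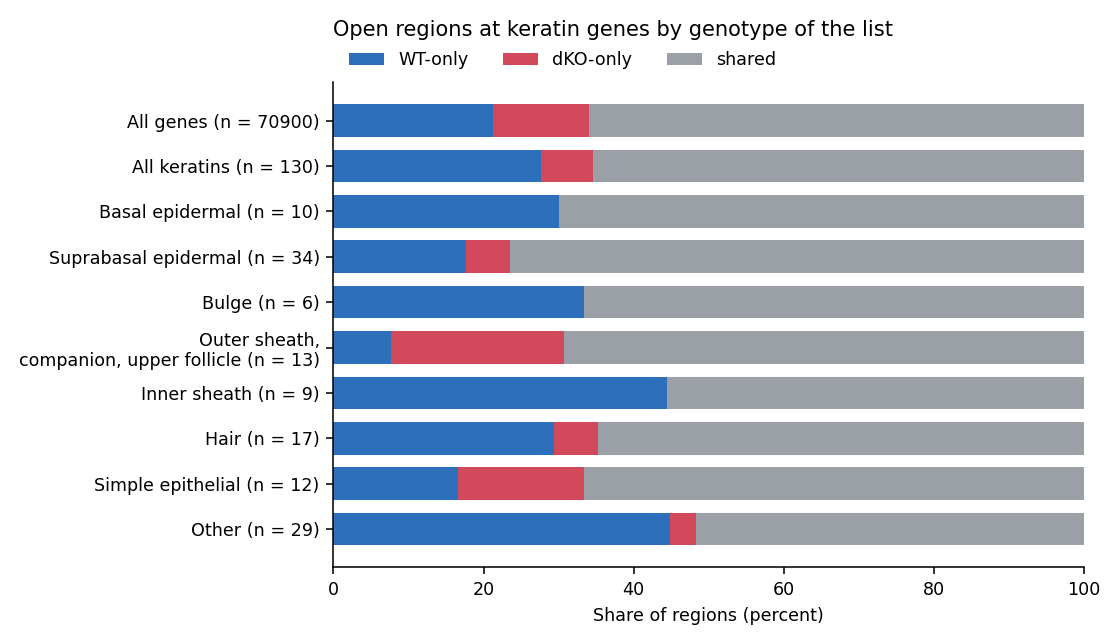
Share of regions (percent, horizontal axis) found in the WT list alone, in the dKO list alone or in both, for all regions assigned to a protein-coding gene, for all keratins and by keratin group, with n the number of regions. The outer sheath, companion and upper follicle group has the largest dKO-only part among the keratin groups (3 of 13), and the basal, bulge and inner sheath groups have no dKO-only region. The interval of the dKO-only share includes the background of 12.9% in each keratin group. That of the WT-only share includes the background of 21.2% in each keratin group but Other. That of the shared part includes the background of 66.0% in each keratin group.

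Keratin peaks had a lower fold than other peaks although their pileup was higher. The median fold in the WT list was 4.61 at keratin genes against 6.43 over all assigned regions, while the median pileup was 107 against 75. In the dKO list the fold was 5.44 against 6.71 and the pileup 47 against 40. The median local background, relative to the lowest in the same list, was 3.69 against 1.90 in WT and 2.50 against 1.74 in dKO. Over all genes peaks of low fold lacked a partner more often than those of high fold in both lists. The single-genotype share was therefore read at like fold. In the lowest 20% of the WT list by fold, 18 of 37 keratin regions (48.6%, 33.4 to 64.1) had no dKO peak, against 51.4% over all genes. In the next 20% this held for 14 of 37 (37.8%, 24.1 to 53.9) against 36.1%. At this fold the WT-only share of keratin regions and that of all regions were within counting error. Pileup was not matched. The median pileup of WT-only regions was 57.5 at keratin genes against 34 over all genes, and their median −log10 q 12.0 against 10.3. In the 40 to 60 and 60 to 80 percentiles it held for 1 of 17 (5.88%, 1.05 to 26.98) against 21.0% and for 1 of 22 (4.55%, 0.807 to 21.8) against 9.93%. The top 20% was the WT bin whose interval lay above the share over all genes: 2 of 8 keratin regions (25.0%, 7.15 to 59.1), those of Krt12 and Krt4, against 3.95%. In the dKO list the keratin shares with no WT peak were 5 of 23 (21.7%, 9.66 to 41.9) against 40.9% in the lowest 20%, and 3 of 25 (12.0%, 4.17 to 29.96) against 23.5% in the next. Both intervals include the value over all genes.

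**Figure D3:**
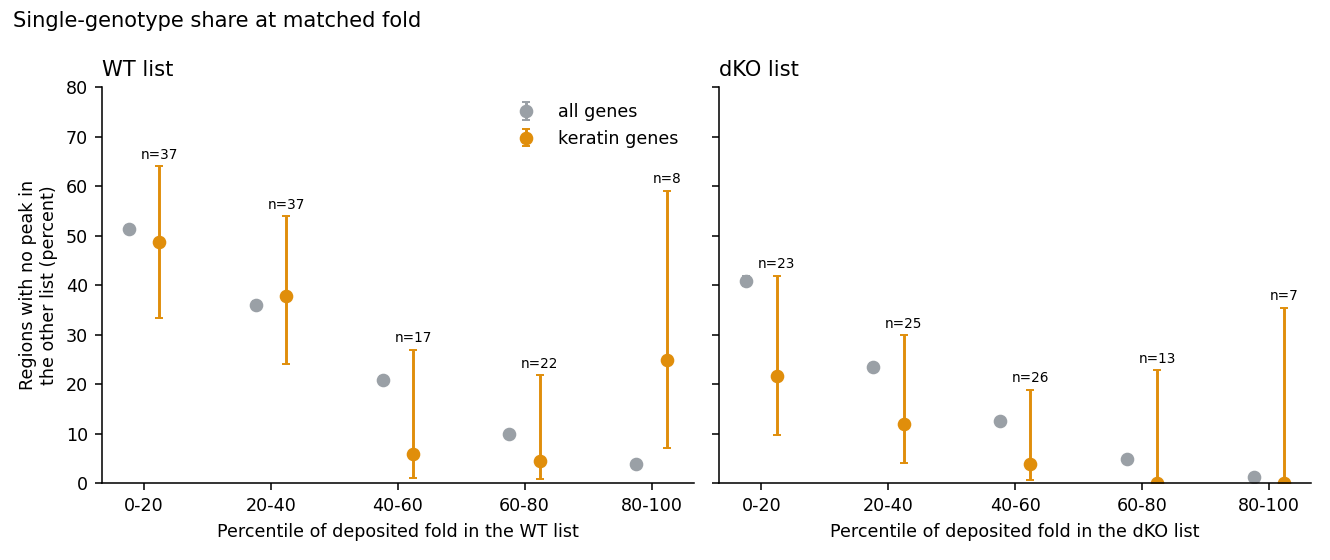
Share of regions with no peak in the other list (percent, vertical axis) by percentile of deposited fold in the WT list (left) and the dKO list (right), for regions of keratin genes and of all genes. Bars are 95% Wilson intervals and n is the number of keratin regions. Keratin and all-gene shares in the 0 to 20 bin of the WT list are 48.6% and 51.4%, and those in the 80 to 100 bin are 25.0% and 3.95%.

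By position, keratin regions differed from all regions at gene ends, where fewer were shared, and between genes, where fewer were dKO-only. Of 25 keratin regions at a gene end 8 were WT-only (32.0%, 17.2 to 51.6, background 6.27%) and 2 dKO-only (interval 2.22 to 24.97, background 3.51%), and 15 were shared (interval 40.7% to 76.6%, against 90.2% over all genes). With single-genotype peaks from the stronger 50% alone, 93.8% (71.7 to 98.9) were shared against 99.2% over all genes, an interval just below that share. This setting keeps all shared regions, so it raises the shared part by its design. With summits within 200 bp 36.7% (21.9 to 54.5) were shared against 74.5%. Without Krt24 and Krt42, 68.2% were shared. Fold was not matched in these comparisons by position. Within genes, away from the ends, WT-only regions were 7 of 30 (23.3%, background 25.6%) and dKO-only regions 3 (10.0%, background 14.3%). Between genes 21 of 75 were WT-only (28.0%, background 22.8%) and 4 dKO-only (5.33%, 2.09 to 12.9, background 15.8%). The WT-only regions at gene ends were those of Krt2, Krt12, Krt19, Krt24 (2 regions), Krt28, Krt42 and Krt81, and the dKO-only ones those of Krt23 and Krt31. Apart from that of Krt12 (85.0 percentile), these WT-only regions had folds between the 7.64 and 29.8 percentiles of the WT list. Several single-genotype regions lay beside a peak of the other list: 10 of 36 WT-only regions and 1 of 9 dKO-only regions were under 1 kb from one.

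The basal pair Krt5 and Krt14 had open regions at their starts and flanks in both lists, on a high local background. Krt5 (chromosome 15, 101707069 to 101712905, mm10) had 3 shared and 1 WT-only region. The region over its start site (101712445 to 101714655) had a pileup of 408 in WT and 156 in dKO, at the 92.7 and 89.5 percentiles of the lists. Its fold was 4.71 in WT and 6.37 in dKO, at the 32.8 and 48.1 percentiles only. The local background there was 16.2 times the lowest of the WT list and 8.66 times the lowest of the dKO list. A shared region followed 4.57 kb upstream (pileup 223 in WT and 80 in dKO) and another lay 1.67 kb beyond the other end of the gene (156 and 83). Between the upstream regions stood the WT-only region, 303 bp wide and 3.13 kb upstream, with a pileup of 177 but a fold of 2.13, at the 1.62 percentile of the WT list.

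Krt14 (chromosome 11, 100203162 to 100207510) had 4 shared and 2 WT-only regions. At the upstream end of the gene model a shared region (100207289 to 100209083) had a pileup of 219 in WT and 77 in dKO and a fold of 3.34 and 6.09. Inside the gene, over the listed start, 2 peaks of each list joined into 1 shared region with a highest pileup of 159 in WT and 48 in dKO. Its fold of 2.09 in WT was at the 1.40 percentile of that list and its fold of 3.32 in dKO at the 9.39 percentile. The WT-only region at 100209627 to 100210109 had a pileup of 186 and lay 549 bp from the nearest dKO peak, and the other WT-only region (100198798 to 100199060) had a pileup of 61. A shared region 14.5 kb from the gene (100221699 to 100222275) ran the other way in rank: its pileup was 18 in WT, at the 2.31 percentile, and 36 in dKO, at the 48.0 percentile. Its fold was 3.02 in WT and 9.92 in dKO. Over the 10 regions of this pair 3 were WT-only (30.0%, 10.8 to 60.3, background 21.2%) and 0 dKO-only (0 to 27.8%, background 12.9%). Both intervals include the background.

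**Figure D4:**
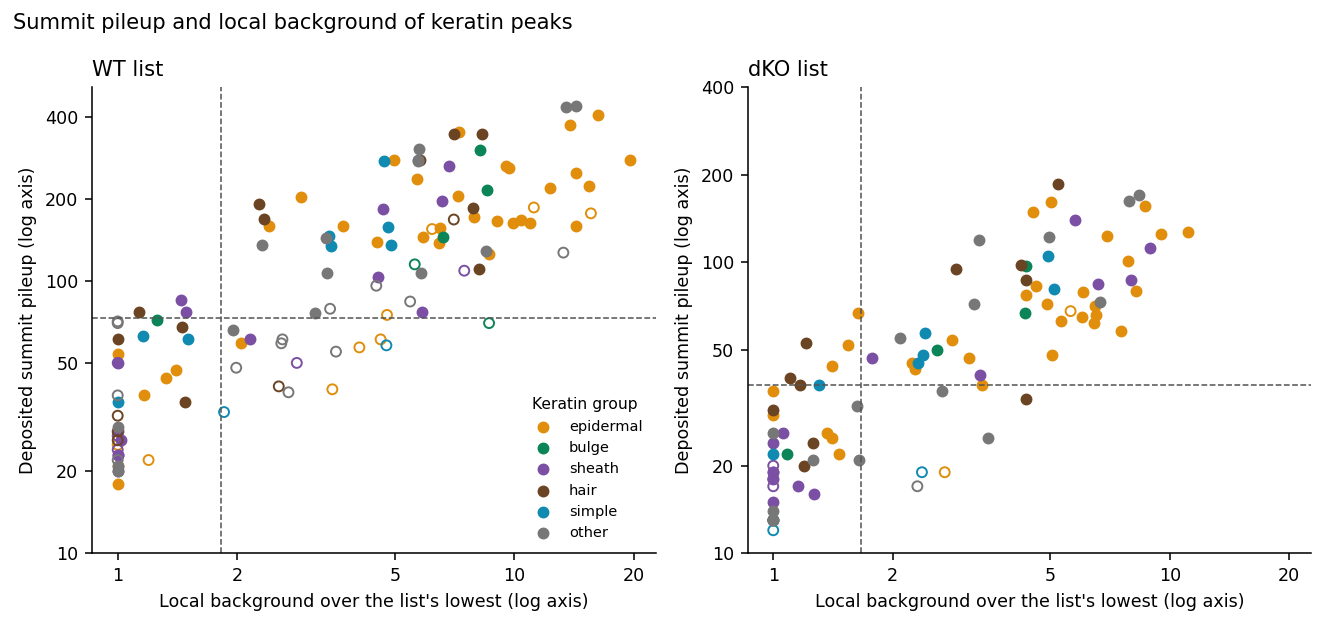
Deposited summit pileup (vertical, log axis) against local background relative to the lowest in the same list (horizontal, log axis) for the keratin peaks of the WT list (left) and the dKO list (right), coloured by keratin group. Filled points are shared and open points single-genotype regions, and dashed lines are the list's medians (pileup 73 in WT and 38 in dKO). The epidermal points furthest to the right include the Krt5 start region at 16.2 times the lowest background in WT and the gene end of Krt80 at 19.6 times.

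The suprabasal keratins were mostly shared, and most of their regions belonged to Krt80. The 7 genes had 34 regions, of which 26 were shared, 6 WT-only and 2 dKO-only. Krt80 (chromosome 15, 101348315 to 101370162), a type II keratin of many epithelia, had 13 shared, 4 WT-only and 2 dKO-only regions. Its gene-end region (101368954 to 101370842) had the highest local background of any keratin peak, 19.6 times the lowest in WT and 11.1 times in dKO, with a pileup of 277 and 127. A WT-only region (101341999 to 101342330, pileup 57) and a dKO-only region (101342344 to 101342613, pileup 19) of this gene were separated by 13 bp. The dKO-only region inside the gene (101362325 to 101363016) had a pileup of 68 and the highest deposited −log10 q (20.7) of the dKO-only keratin regions. In a nearby shared region (101354050 to 101354899) the pileup was 38 in WT and 52 in dKO, at the 26.9 and 61.0 percentiles.

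Krt78 (chromosome 15, 101946001 to 101996624), a keratin of the upper epidermis, had 5 shared regions and 1 WT-only region. All 6 lay inside a long gene model but 12.7 to 29.9 kb upstream of the listed start site, which itself lay in no peak. The shared region with the highest WT pileup had 353 in WT and 149 in dKO, and the WT-only region (101968853 to 101969183) one of 155 with a −log10 q of 51.2. Krt10 (chromosome 11, 99385254 to 99397449) had 3 shared regions. None overlapped its listed start, and the strongest (99385531 to 99386836, at the end of the gene away from its start) had a pileup of 159 in WT and 44 in dKO. Its partner Krt1 (chromosome 15, 101845426 to 101850786) had 1 shared region at a gene end, with a pileup of 54 in WT and 30 in dKO. Krt9, the keratin of palms and soles, had 2 shared regions 9.56 and 18.6 kb from the gene, the nearer with a fold of 12.5 in WT and 12.4 in dKO. Krt77 had 2 shared regions with pileups of 47 and 44 in WT and 25 and 26 in dKO. Krt2, a keratin of the late suprabasal layers, had a single region: the WT-only one over its start (101818114 to 101818477), with a pileup of 25 and a distance of 27.5 kb to the nearest dKO peak.

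The bulge keratins had 4 shared regions of 6 (66.7%, 30.0 to 90.3, background 66.0%) beside 1 WT-only region each. Krt15 (chromosome 11, 100131759 to 100135949) had 3 shared regions. The one at its gene end (100135404 to 100136496) had a pileup of 303 in WT and 97 in dKO and a fold of 6.84 and 7.64. A shared region on each side, within 2 kb of the gene, had pileups of 216 and 145 in WT and 67 and 50 in dKO. The WT-only region of Krt15 (100137139 to 100137395) was 257 bp wide and had a fold of 1.52, at the 0.0308 percentile of the WT list, and a dKO peak was 336 bp away. It was also the keratin WT region lost when WT pileups were scaled down to the dKO background. Krt19 (chromosome 11, 100140810 to 100145926), a keratin of simple epithelia that also marks bulge cells, had a WT-only region at a gene end (100140993 to 100141772). Its pileup was 115, its fold 3.78 and its −log10 q 30.3, and the nearest dKO peak was 2.95 kb away. Its shared region, 9.94 kb from the gene, had a fold of 9.54 in WT, at the 73.9 percentile, and 5.81 in dKO, at the 42.5 percentile.

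Keratins of the outer root sheath, companion layer and upper follicle were the group with most dKO-only regions. Of 13 regions at Krt16, Krt17, Krt75 and Krt79, 9 were shared, 1 was WT-only and 3 were dKO-only (23.1%, 8.18 to 50.3, background 12.9%). Krt17 (chromosome 11, 100256215 to 100261029), a keratin of the outer root sheath that is also induced by wounding, had 3 shared regions. Their pileups were 77, 196 and 103 in WT, at the 51.9, 77.1 and 60.8 percentiles. In dKO they were 87, 112 and 84, at the 76.2, 82.4 and 75.3 percentiles. The local background at these regions was 5.84, 6.57 and 4.54 times the lowest of the WT list and 8.0, 8.89 and 6.57 times the lowest of the dKO list. Krt16, another wound-induced keratin, had 2 shared regions with pileups of 26 and 61 in WT and 16 and 41 in dKO.

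Krt75 (chromosome 15, 101563343 to 101573904), the keratin of the companion layer, had 2 shared and 2 dKO-only regions. The shared region over its start (101573764 to 101574522) had a pileup of 85 and a fold of 9.97 in WT, at the 76.7 percentile, and a pileup of 18 and a fold of 5.10 in dKO, at the 34.3 percentile. Inside the gene a shared region had pileups of 184 and 47. The dKO-only regions lay 9.49 and 10.7 kb upstream (101583058 to 101583735 and 101584389 to 101584795), with pileups of 20 and 18 and the nearest WT peaks 8.54 and 9.87 kb away. Krt79 (chromosome 15, 101929332 to 101940324), a marker of the upper follicle, had 2 shared regions and 1 of each single kind, with pileups of 15 to 28. In its shared region 1.10 kb inside the start (101938910 to 101939543) the pileup was 20 in WT, at the 4.63 percentile, and 26 in dKO, at the 35.1 percentile.

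Inner root sheath keratins had few regions. The 7 genes had 9 regions, of which 5 were shared, 4 WT-only (44.4%, 18.9 to 73.3, background 21.2%) and 0 dKO-only (0 to 29.9%, background 12.9%), and both intervals include the background. Krt26 and Krt73 had no region. Krt28 (chromosome 11, 99365007 to 99374903) had 2 WT-only regions, at its start (99374545 to 99374888, pileup 27) and 4.95 kb upstream (99379689 to 99380015, pileup 50, fold 8.11). Krt72 (chromosome 15, 101776172 to 101786520) had 2 WT-only regions with pileups of 50 and 109, next to a strong shared region (101771870 to 101773808) with pileups of 264 in WT and 140 in dKO. Krt25 had a shared region over its start, with a pileup of 50 in WT and 24 in dKO. Krt71, whose variants give a wavy coat, had 2 shared regions, the stronger with a fold of 8.79 in WT and 4.34 in dKO. Krt27 had 1 shared region inside the gene, with pileups of 23 and 19. The sheath list also held Krt74, which the gene table gives as a transcribed pseudogene and which is no member.

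Hair keratin genes had no peak over a listed promoter window and a few shared regions of high fold. Of 13 genes 5 (Krt34, Krt35, Krt36, Krt40 and Krt87) had no region, and the other 8 had 17 regions, 11 shared, 5 WT-only and 1 dKO-only. Over all genes 28.4% had no region. Krt32 (chromosome 11, 100080848 to 100088269), a keratin of the hair cuticle, had 5 shared regions. The one inside the gene (100084529 to 100085834) had the highest fold of any keratin region in the WT list, 14.8 at the 96.7 percentile, and 12.6 at the 88.5 percentile in dKO, with pileups of 192 and 53. The other 4 lay 2.38 to 13.8 kb from the gene, with pileups of 111 to 346 in WT and 34 to 98 in dKO. Krt31 (chromosome 11, 100046646 to 100050551), a keratin of the hair cortex, had a shared region 5.62 kb upstream with pileups of 346 and 186. Next to it was a WT-only region (100057421 to 100058154) with a pileup of 168 and a −log10 q of 52.9, the highest of the WT-only keratin regions, 826 bp from a dKO peak. Its dKO-only region, at the other end of the gene, had a pileup of 13.

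In the hair keratins of chromosome 15, Krt83 had 1 shared region 11.2 kb away with a fold of 12.7 in WT, at the 90.4 percentile, and 8.58 in dKO, at the 66.8 percentile. Krt86 had 1 at its gene end, with a fold of 11.2 in WT and 10.2 in dKO. Krt84 (chromosome 15, 101525026 to 101532820) had 3 WT-only regions with pileups of 26, 28 and 32 and 1 shared region with 68 and 24. Krt81 had a single WT-only region at a gene end, with a pileup of 41. Krt39 and Krt82 had 1 shared region each, with pileups of 61 and 36 in WT and 38 and 20 in dKO. Krt85 has no entry in the gene table used, so any region closest to it would have been given to another gene. Krt33a, a hair keratin named with a letter, had 4 shared regions and Krt33b had 1.

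Simple epithelial keratins had 12 regions, 8 shared, 2 WT-only and 2 dKO-only. The net count of this group was 0, and 3 at the stricter q. Krt8 (chromosome 15, 101996711 to 102004342) had a shared region 1.77 kb upstream of its start (102005074 to 102007151) with a pileup of 276 and a fold of 10.7 in WT, at the 81.2 percentile, and 48 and 6.53 in dKO, at the 50.0 percentile. Inside the gene a dKO-only region had a pileup of 19. Its partner Krt18, the type I gene that lies in the type II cluster, had 1 shared region 11.6 kb upstream, with pileups of 36 and 13. Krt7 had 4 shared regions, with pileups of 61 to 146 in WT and 22 to 57 in dKO, and 1 WT-only region. Krt23 (chromosome 11, 99477973 to 99493120) had 2 shared regions with pileups of 158 and 135 in WT and 105 and 81 in dKO, 1 WT-only region, and a dKO-only region (99493177 to 99493750) that begins upstream of its start and covers 194 of the 250 bases before it. That last one had a pileup of 12 and a −log10 q of 3.35, and lay 20.1 kb from the nearest WT peak. Krt20, a keratin of the gut lining, had no region.

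The remaining keratins held 13 of the 36 WT-only regions, 9 of them at Krt24 and Krt42. Of the 29 regions of this group these 13 were 44.8% (28.4 to 62.5, background 21.2%). The 1 dKO-only region was 3.45% (0.611 to 17.2, background 12.9%). The net count of the group was 12, and 4 without Krt24 and Krt42. Krt24 (chromosome 11, 99279959 to 99285262), a type I keratin, had 3 shared, 5 WT-only and 1 dKO-only region. Of the WT-only regions, 1 lay over the start site (99285086 to 99285664, pileup 59, fold 4.09), 1 next to it inside the gene (99283937 to 99284698, pileup 61) and 1 deeper in the gene (99280943 to 99281473, pileup 84). The nearest dKO peak was 7.94, 6.80 and 3.80 kb away, so no dKO peak touched the gene. The shared regions lay 3.35, 8.37 and 14.5 kb beyond its other end, with pileups of 275, 107 and 136 in WT and 72, 36 and 55 in dKO. The 5 WT-only regions had pileups of 38 to 84, between the 26.9 and 54.7 percentiles of the WT list. Their folds lay between the 5.41 and 48.3 percentiles.

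Krt42 (chromosome 11, 100262882 to 100269951), a rodent keratin gene next to Krt17, had 4 shared and 4 WT-only regions. Its gene body and start carried 3 of the WT-only regions (100266459 to 100267349, 100267665 to 100268605 and 100269886 to 100270283) with pileups of 96, 79 and 55, and no dKO peak lay within 3.98 kb of them. The folds of these 3 were at the 22.7, 26.5 and 7.64 percentiles of the WT list. The fourth, 20.6 kb upstream, had a pileup of 127 but a fold of 1.79, at the 0.387 percentile. A dKO peak was 735 bp away from it. The 4 shared regions, 8.32 to 19.4 kb upstream, included the highest pileups of any keratin region in WT, 438 and 434, with 171 and 163 in dKO. Krt42, Krt17, Krt16 and Krt14 are similar in sequence, and how the authors treated reads that match several places is not given in the sources used here. Without Krt24 and Krt42, 27 WT-only and 8 dKO-only regions remained and the net share was 16.8%.

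Among the others, Krt12, the keratin of the cornea, had a WT-only region at a gene end (99414602 to 99415378), 7.27 kb downstream of its listed start. Its fold was 11.4, at the 85.0 percentile of the WT list, and its −log10 q 51.6. Krt4, a keratin of the oral and oesophageal lining, had a single WT-only region inside the gene (chromosome 15, 101923251 to 101923959), with a fold of 11.3 and a −log10 q of 50.5. These are the 2 WT-only keratin regions in the top 20% of the WT list by fold, with pileups of 71 and 70 at the lowest background of the list. Krt222 had 4 shared regions and 1 WT-only, Krt88 had 2 and 1, Krt90 had 1 shared region, and Krt13 and Krt76 had none. Krt6a, a wound-induced type II keratin named with a letter and so no member, had 3 shared regions and 1 WT-only region. The one at its gene end (101694037 to 101695876) had a pileup of 384 in WT and 151 in dKO, and Krt6b had no region.

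**Figure D5:**
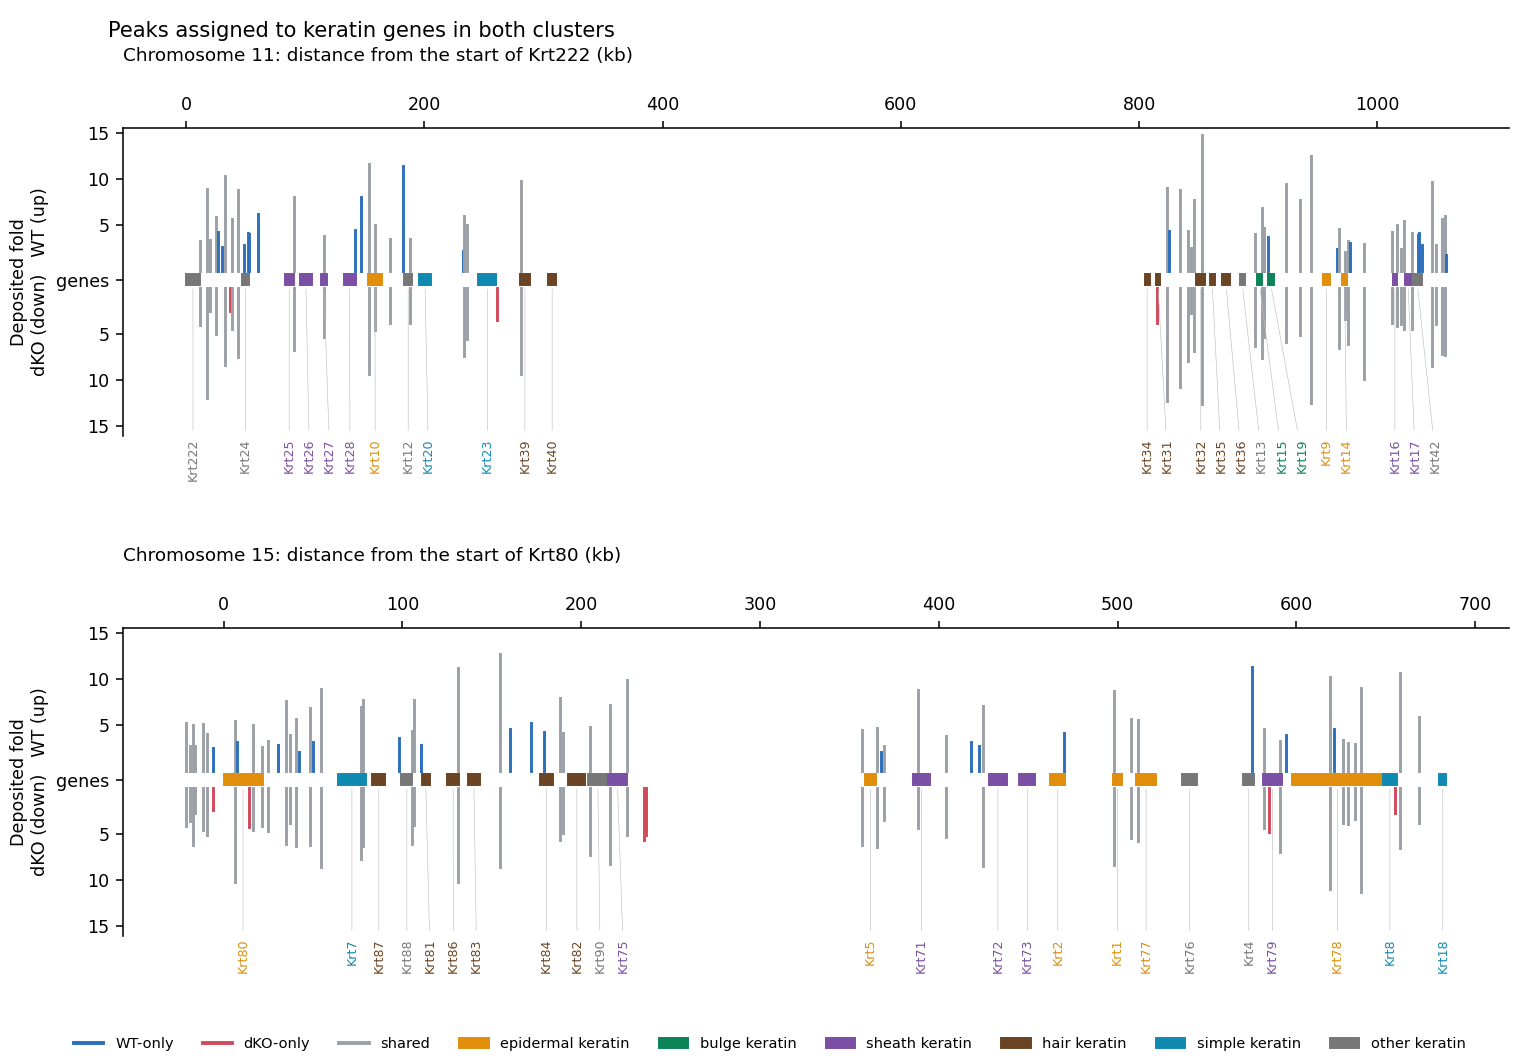
Peaks assigned to keratin genes along the clusters of chromosome 11 (top) and chromosome 15 (bottom). The horizontal axis is the distance in kb from the start of the first keratin gene, boxes are keratin genes coloured by group, and lines are the deposited fold of each region's strongest peak in WT (up) and dKO (down). WT-only lines gather at Krt24 near the left end and Krt42 at the right end of the chromosome 11 cluster, and the dKO-only lines of Krt75 stand together at its upstream side.

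Both clusters held more open regions per 100 kb than the chromosomes as a whole, but unevenly so. From Krt222 to Krt42 the cluster on chromosome 11 spanned 1037 kb with 6.65 regions per 100 kb. From Krt80 to Krt18 that on chromosome 15 spanned 684 kb with 9.21, against 3.04 over all chromosomes but Y. Regions of other genes in the spans are counted too: 57 of 69 and 59 of 63 were keratin regions. Gene density was not matched. The members on chromosome 11 had 41 shared, 19 WT-only and 3 dKO-only regions, a net share of 25.4%, and those on chromosome 15 had 44, 17 and 6, a net share of 16.4%. In both clusters the interval of the WT-only share includes the background of 21.2%, and that of the dKO-only share includes 12.9%. For each class the intervals of the clusters overlap, so the clusters were within counting error of each other. The long gap on chromosome 11 between Krt40 and Krt34 holds genes of keratin-associated proteins, the matrix proteins of hair. These 23 genes on chromosome 11 had 5 regions in all, 4 shared and 1 dKO-only, and 20 of them (87.0%) had none, against 10 of 49 keratin genes (20.4%).

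At neighbouring genes WT-only regions outnumbered dKO-only ones, as they did over all genes. In the epidermal differentiation complex this order was reversed. The 85 other protein-coding genes within 500 kb of either cluster had 203 regions, 39 WT-only (19.2%, 14.4 to 25.2) and 10 dKO-only (4.93%, 2.70 to 8.83), with a net share of 14.3%. Their dKO-only share, like that of keratin genes, was under the background of 12.9%. The interval of their WT-only share includes the background of 21.2%, and the net share over all genes was 8.35%. The epidermal differentiation complex, a cluster of cornified envelope genes on chromosome 3, had 107 regions, 14 WT-only (13.1%, 7.96 to 20.8) and 23 dKO-only (21.5%, 14.8 to 30.2), with a net share of −8.41%. In this complex the WT-only interval lay just below the background of 21.2%, and the dKO-only interval lay above that of 12.9%. No test of these differences was possible with 1 list per genotype.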

How the data were processed

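ATAC-seq peak lists of sorted hair follicle stem cells from 2 WT and 2 dKO mice were analysed, 1 list per genotype. Bowtie2 2.2.9, Picard and MACS2 and the builds mm10 and GRCm38 are named in the submitters' processing notes, with no role or order. What each tool did, any shifting of reads or removal of duplicates, and the way mice were combined are not stated in the labels. The authors' signal column is the summit pileup, not scaled for depth. The authors' fold is a ratio, with 1 added to both the pileup and the local background, from which the background was recovered. The deposited −log10 p and −log10 q columns have damaged header cells and were identified by position. A Poisson p computed again from pileup and background came within 0.001 of the deposited −log10 p at 99.98% of WT peaks and 99.997% of dKO peaks checked.

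Mitochondrial peaks (5 WT, 3 dKO) were left out. Peaks overlapping by 1 bp were joined, and each region midpoint went to the closest protein-coding gene of the RefSeq table of GRCm38.p6, up to 100 kb away, with the shortest gene taken where several held it. Overlap counts differed by 0 from bedtools 2.31.1, and the assignment was tested on simulated data. With 1 list per genotype there is no p-value for any difference. Percentiles were taken within each list. Alternatives changed the overlap rule, the q threshold, the length of the lists, the strength asked of single-genotype peaks, the distance rule and the members. Every member is accounted for: Krt5, Krt14, Krt15 and each member with a single-genotype region are named with counts, then the 3 with most regions per group. The named regions are the single-genotype ones at gene ends, the 4 per class with the highest −log10 q and the 4 shared ones with the highest WT fold, and further regions of named genes were added after their values were seen. The members, lists and tests were chosen with earlier results of these data known. Python 3.11.15, pandas 2.3.3, numpy 2.4.6 and scipy 1.17.1 were used.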

Additional observations from a re-analysis of the deposited data

How the results depend on the processing

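In 10 alternatives, 8 planned and 2 added after the data were seen (WT scaled to the dKO background, and leaving out Krt24 and Krt42), WT-only keratin regions outnumbered dKO-only ones. The net share kept its sign in all 10. The count of dKO-only regions moved to 23 with summits within 200 bp, and the net share was 17.2% (6.68% over all genes). Taking single-genotype peaks from the stronger 50% left 5 WT-only regions, 1 dKO-only region and a net share of 4.40% (2.04% over all genes). This setting drops weaker single-genotype regions but keeps all 85 shared ones, so single-genotype shares fall by its design. The net count of Krt80 turned to −1 under that setting, against 2. At a stricter q threshold the net share was 27.05% (13.5% over all genes). It was 18.1% with lists of equal length (2.57% over all genes) and 20.2% with WT scaled to the dKO background (5.72% over all genes). The scaling uses expected pileups and adds no sampling noise. Regions near the threshold in the shallower dKO list can be missed, and the depth of the lists is not known beyond their background. No paired analysis was possible because each genotype has a single list that no mouse number divides. Leaving out a mouse was not possible for the same reason.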
